A study of Mus musculus with 6 samples.

Results

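The genes described here are 10 components of the insulin-like growth factor (IGF) system: the binding protein genes Igfbp2, Igfbp3, Igfbp4 and Igfbp5, the ligand gene Igf1, the receptor genes Igf1r, Igf2r and Insr, and Irs1 and Irs2, which encode the adaptor proteins beneath the receptors. They are 10 of the 55416 genes in the deposited table and were matched by symbol to their Ensembl mouse identifiers. The family was chosen by the measured difference of Igfbp5 between DS38 and DMSO in these same libraries, so the Igfbp5 contrast is given as a description with no test, and nothing is read from how many relatives differed. Of the 10 genes, 9 passed the filter on low counts and Igf1 did not.

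RNA sequencing was done on MB21 cells, a mouse medulloblastoma line labelled as a ptch mutant, grown without attachment in a serum-free medium with B27. The DS38 group (3 libraries) received DS-1-38, a derivative of benzarone, at 10 uM for 1 day. The DMSO group (3 libraries) received the vehicle for 1 day. For both groups the series' design text names 5 days instead. All libraries come from 1 cell line, and no label states that replicates came from separate cultures. The p-values therefore reflect the spread among these libraries alone, and that spread may be technical. Library totals were 60434089 to 84044428 counts in DS38 and 38840296 to 50014681 in DMSO, so every DS38 library was deeper.

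IGF1 and IGF2 are secreted ligands that signal through the receptor tyrosine kinase IGF1R, and insulin and IGF2 also act through the insulin receptor. The activated receptors phosphorylate IRS1 and IRS2, which recruit the PI3-kinase that turns on AKT. IGF2R is a mannose-6-phosphate receptor that takes IGF2 into lysosomes, and the IGF-binding proteins hold the ligands in the extracellular space, where proteases can release them. In cerebellar granule progenitors, the cells of origin of hedgehog medulloblastoma, IGF signalling is known to cooperate with hedgehog signalling, and B27 supplies insulin to cultured cells.

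Igfbp5 was higher in DS38 in every library and was the most abundant of the binding protein genes. The protein binds IGFs and attaches to extracellular matrix, and its gene is transcribed in many neural and mesenchymal tissues. Levels are given as CPM, counts scaled to each library's TMM-adjusted total. They were 194, 186 and 191 in DS38 replicates 1 to 3, and 139, 131 and 132 in DMSO replicates 1 to 3. The lowest DS38 library thus lay well above the highest DMSO library. The means were 190.4 ± 3.84 CPM in DS38 and 134 ± 4.16 CPM in DMSO (SD, n = 3 each), a 1.42-fold difference, or 0.51 ± 0.031 on the log2 scale (SE of the edgeR fit). Among the 17679 genes tested, 789 had a larger log2 fold change. Because these are bulk samples, a change in the share of cells that make a transcript and a change in transcript per cell cannot be told apart, here and below.

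Igfbp4, which encodes a binding protein known mainly as an inhibitor of IGF action and as the substrate of the protease PAPPA, rose by a similar amount at a far lower level. It had 4.83, 4.88 and 5.02 CPM in DS38 replicates 1 to 3, and 3.38, 3.43 and 3.18 CPM in DMSO replicates 1 to 3. The groups did not overlap. These levels rest on 299 to 428 reads per DS38 library and 123 to 165 reads per DMSO library. The log2 fold change was 0.56 ± 0.10 (SE; edgeR adjusted p = 3.022e-04), and it was positive when each library was left out in turn (0.52 to 0.58, edgeR adjusted p at most 0.00252).

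The promoters of these 2 genes, the members that were higher in DS38, are shown because both carry a TATA-like run close upstream of the annotated start. The sequences are RefSeq's for GRCm38.p6 and span 250 bases before to 50 after the start, read 5′ to 3′ on the strand of the gene. Capitals mark TTTAAA in the first and TATAAA in the second.
Igfbp5 promoter, chr1:72874816-72875115, minus strand: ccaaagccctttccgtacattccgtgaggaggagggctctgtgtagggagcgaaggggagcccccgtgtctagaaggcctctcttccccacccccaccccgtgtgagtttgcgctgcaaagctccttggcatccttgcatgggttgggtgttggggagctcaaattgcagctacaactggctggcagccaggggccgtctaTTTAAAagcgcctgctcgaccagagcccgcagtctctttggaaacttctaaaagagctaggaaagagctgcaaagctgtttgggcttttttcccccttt
Igfbp4 promoter, chr11:99040994-99041293, plus strand: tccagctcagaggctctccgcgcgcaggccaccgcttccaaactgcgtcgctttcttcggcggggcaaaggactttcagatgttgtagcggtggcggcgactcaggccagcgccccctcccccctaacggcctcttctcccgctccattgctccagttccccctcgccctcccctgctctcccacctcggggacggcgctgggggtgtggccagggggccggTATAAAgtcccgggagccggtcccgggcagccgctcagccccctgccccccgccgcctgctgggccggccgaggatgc
TTTAAA in Igfbp5 begins 49 bases before the start and TATAAA in Igfbp4 begins 28 bases before it. Both motifs were chosen after the sequences were seen. Searched on both strands and at any position in all 32851 promoters of the table, TTTAAA was found in 13.16% and TATAAA in 13.62%. Neither run was found in the promoters of the other members in the table. The Igfbp3 promoter, however, holds another A/T run upstream of the start, TATATAT, which these 2 motifs do not cover. Igfbp3 was not called (log2 fold change -0.14), so a TATA-like run does not set the 2 genes apart. Searched in the same way, GTAAACA (FOXO factors), TGATGNAAN (ATF4 with C/EBP), CACGTG (the E-box) and GACCACCCA (GLI factors), had no match in either promoter. They occur in 3.65%, 3.95%, 7.15% and 0.25% of all promoters.

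The other binding protein genes did not share this direction. Igfbp2, whose product is abundant in the developing brain, had 19.5, 20.3 and 17.5 CPM in DS38 replicates 1 to 3, and 21.1, 20.1 and 23.4 CPM in DMSO replicates 1 to 3. DS38 replicate 2 lay just above DMSO replicate 2, so the groups overlapped. Igfbp2 fell by 0.18 ± 0.062 in log2 terms (SE; edgeR adjusted p = 0.040). That call was lost without DS38 replicate 1 (edgeR adjusted p = 0.0663), DS38 replicate 3 (0.231), DMSO replicate 1 (0.0589) or DMSO replicate 3 (0.148), and with library size alone as the scaling (0.105). Igfbp2 and Igfbp5 are neighbours on mouse chromosome 1 with no protein-coding gene between them in RefSeq, and they lie on opposite strands.

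Igfbp3 encodes the main IGF carrier of serum. It had 12.2, 10.5 and 10.7 CPM in DS38 replicates 1 to 3, and 12.1, 11.8 and 12.8 CPM in DMSO replicates 1 to 3. DS38 replicate 1 lay within the DMSO range. The log2 fold change was -0.14 ± 0.069 (SE; edgeR adjusted p = 0.162), and its 95% interval ran from -0.28 to 0.0073.

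**Figure D1:**
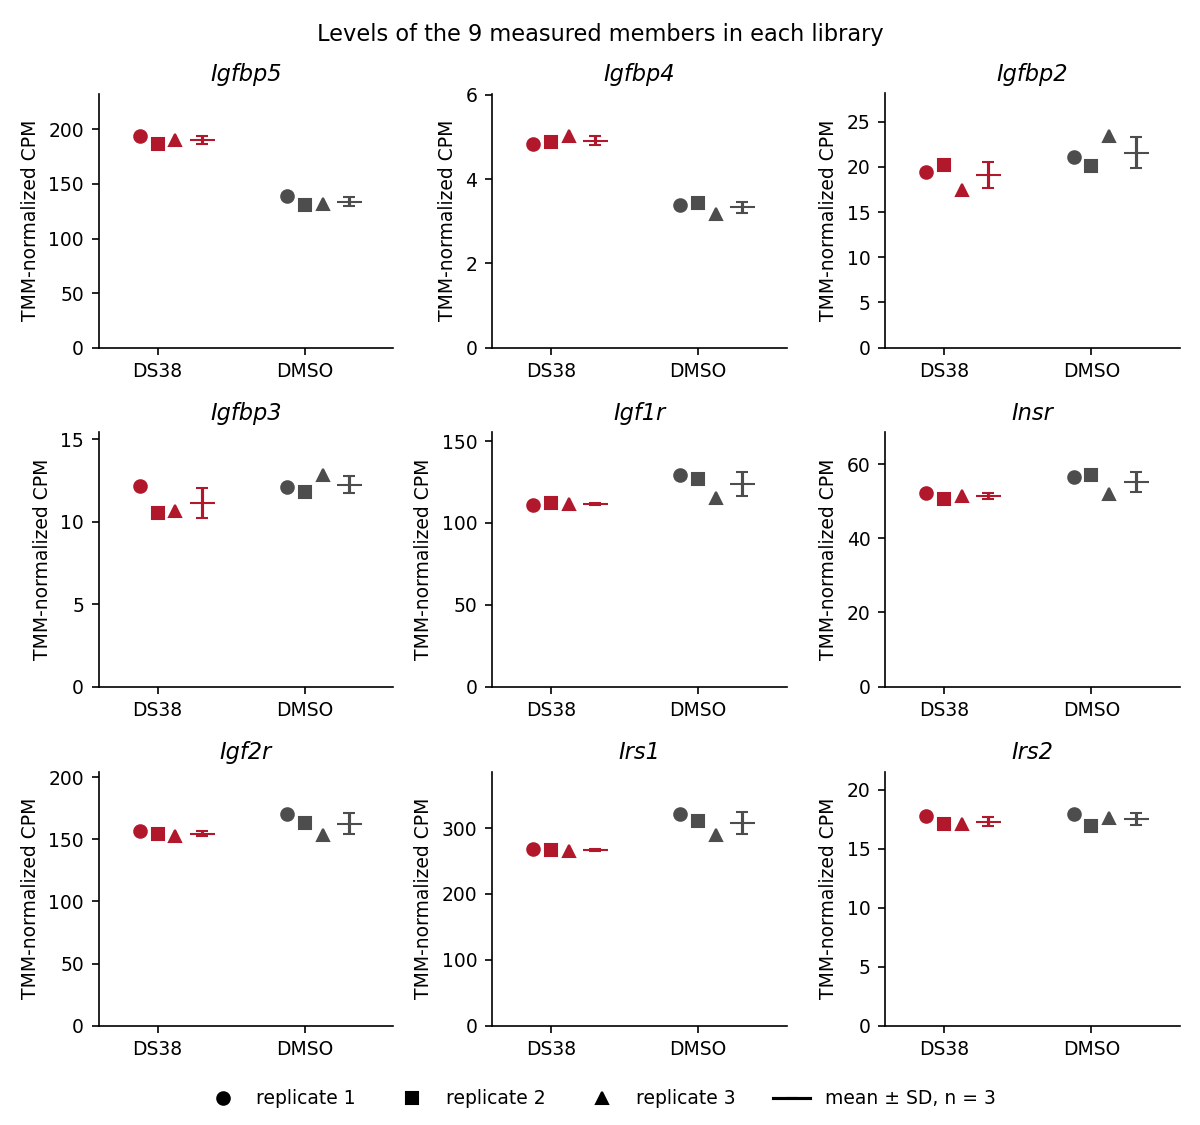
TMM-normalized CPM of the 9 measured genes in each library (y axes start at 0 and differ between panels), with DS38 in red and DMSO in grey; symbols are replicates and bars are mean ± SD (n = 3). Igfbp5 and Igfbp4 are higher in all DS38 libraries, while DMSO replicate 3 lies nearest to the DS38 libraries for Igf1r, Insr, Igf2r and Irs1.

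Compared per length, as TPM (counts divided by gene length and scaled to the same total in every library), Igfbp5 made up most of the binding protein transcripts and its share was larger in DS38. Its share of the summed TPM of Igfbp2, Igfbp3, Igfbp4 and Igfbp5 was 67.6, 66.8 and 69.4% in DS38 replicates 1 to 3, and 59.0, 58.6 and 55.6% in DMSO replicates 1 to 3. Igfbp2 held 22.1 ± 1.45% in DS38 and 30.2 ± 1.69% in DMSO (SD, n = 3 each). Igfbp3 held 7.60 ± 0.465% in DS38 and 10.1 ± 0.260% in DMSO, and Igfbp4 2.38 ± 0.102% in DS38 and 1.95 ± 0.129% in DMSO. The summed level of the 4 genes was 189.5 ± 3.39 TPM in DS38 and 154 ± 4.66 TPM in DMSO. These shares and sums contain the Igfbp5 difference and were not tested.

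**Figure D2:**
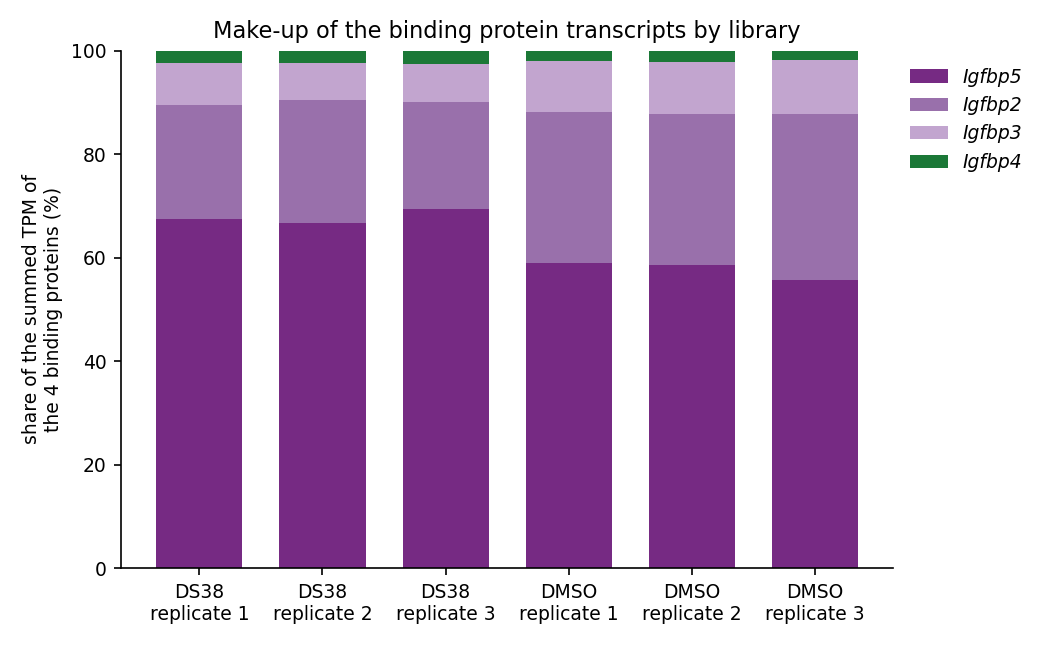
Share of each binding protein gene in the summed TPM of Igfbp2, Igfbp3, Igfbp4 and Igfbp5 (y axis, percent), with 1 stacked bar per library. The Igfbp5 segment is 66.8 to 69.4% in DS38 and 55.6 to 59.0% in DMSO.

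The ligand gene was barely read in either group. Igf1 had 2, 1 and 0 reads in DS38 replicates 1 to 3, and 1, 0 and 0 reads in DMSO replicates 1 to 3. A limit of 3 counts corresponds to 0.0357 to 0.0496 CPM in the DS38 libraries and 0.0600 to 0.0772 CPM in the DMSO libraries, so no fold is given; these limits cover counting error only. The other ligand genes were as low. Igf2 had 2 reads over all 6 libraries, and the insulin genes Ins1 and Ins2 had 0.

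The receptor tyrosine kinase genes were slightly lower in DS38. Igf1r, the signalling receptor for both IGFs, had 111, 112 and 111 CPM in DS38 replicates 1 to 3, and 129, 127 and 115 CPM in DMSO replicates 1 to 3. All DS38 libraries lay below all DMSO libraries, but DMSO replicate 3 was closer to the DS38 libraries than to the other DMSO libraries. Igf1r fell by 0.15 ± 0.036 in log2 terms (SE; edgeR adjusted p = 0.00320), or by 0.20 without DMSO replicate 3 (edgeR adjusted p = 3.134e-06). With an offset for gene length the log2 fold change was -0.050 and did not pass (edgeR adjusted p = 0.193).

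Insr, the insulin receptor, had 52.1, 50.5 and 51.3 CPM in DS38 replicates 1 to 3, and 56.5, 57.1 and 52.0 CPM in DMSO replicates 1 to 3. DS38 replicate 1 lay just above DMSO replicate 3, so the groups touched. Insr fell by 0.11 ± 0.038 in log2 terms (SE; edgeR adjusted p = 0.0462). The call was lost without any of DS38 replicates 1, 2 and 3 or DMSO replicates 1 and 2 (edgeR adjusted p = 0.0803, 0.159, 0.110, 0.15 and 0.212), and held without DMSO replicate 3 (0.00270). It was also lost with the gene length correction (-0.033, edgeR adjusted p = 0.516).

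Igf2r, the IGF2 scavenger receptor, had 157, 155 and 152 CPM in DS38 replicates 1 to 3, and 170.5, 163 and 154 CPM in DMSO replicates 1 to 3. DMSO replicate 3 lay inside the DS38 range. The log2 fold change was -0.072 ± 0.033 (SE; edgeR adjusted p = 0.124), and without DMSO replicate 3 it was -0.11 and passed (edgeR adjusted p = 0.00395). Airn is annotated on the opposite strand of Igf2r, and their exons do not overlap in GENCODE M21.

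Relative to one another the receptors stayed close. The ratio of Igf1r to Insr in TPM was 1.78 ± 0.0417 in DS38 and 1.83 ± 0.0354 in DMSO (SD, n = 3 each), and the groups overlapped. The ratio of Igf2r to Igf1r was 2.50 ± 0.0455 in DS38 and 2.37 ± 0.0425 in DMSO, without overlap. Set against the receptor, Igfbp5 stood at 4.77 ± 0.131 times the TPM of Igf1r in DS38 and 3.03 ± 0.157 times in DMSO.

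The adaptor genes differed from each other. Irs1 had 268, 267 and 265 CPM in DS38 replicates 1 to 3, and 322, 311 and 289 CPM in DMSO replicates 1 to 3. The DS38 libraries were tightly grouped and all lay below the DMSO libraries. Irs1 fell by 0.21 ± 0.033 in log2 terms (SE; edgeR adjusted p = 9.187e-05), and this call held in all 16 alternative settings (-0.25 to -0.17). Irs2, a FOXO-responsive gene in liver, had 17.7, 17.1 and 17.1 CPM in DS38 replicates 1 to 3, and 18.0, 17.0 and 17.6 CPM in DMSO replicates 1 to 3. These values were interleaved. Its log2 fold change was -0.016 ± 0.053 (SE; edgeR adjusted p = 0.867) with a 95% interval of -0.13 to 0.094, and the sign turned with library size alone (0.019) and without DMSO replicate 1 (0.0052). The ratio of Irs1 to Irs2 in TPM was 10.7 ± 0.185 in DS38 and 12.1 ± 0.693 in DMSO.

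Exons of Irs1 overlap those of Gm9747, and exons of Irs2 those of 9530052E02Rik, on the opposite strand in GENCODE M21. The strand setting of the counting is not given in the sources used here, so reads in these overlaps cannot be told apart. The Irs1 and Irs2 promoters are shown because they share an E-box within an identical stretch of 10 bases, gtCACGTGtt, although only Irs1 passed the test. Capitals mark CACGTG.
Irs1 promoter, chr1:82291390-82291689, minus strand: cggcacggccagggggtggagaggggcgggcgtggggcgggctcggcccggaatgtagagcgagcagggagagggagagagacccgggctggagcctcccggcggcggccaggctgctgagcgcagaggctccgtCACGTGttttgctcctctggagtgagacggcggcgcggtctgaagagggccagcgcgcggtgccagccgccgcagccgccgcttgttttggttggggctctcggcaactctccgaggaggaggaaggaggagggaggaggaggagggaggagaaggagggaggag
Irs2 promoter, chr8:11008880-11009179, minus strand: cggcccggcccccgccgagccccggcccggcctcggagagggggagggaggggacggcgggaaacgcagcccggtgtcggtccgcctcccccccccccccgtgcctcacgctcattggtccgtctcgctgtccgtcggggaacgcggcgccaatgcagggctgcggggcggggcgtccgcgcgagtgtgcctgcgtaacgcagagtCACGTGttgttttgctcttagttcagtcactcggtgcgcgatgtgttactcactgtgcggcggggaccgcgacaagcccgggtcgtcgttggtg
The E-box begins 115 bases before the start in Irs1 and 44 bases before it in Irs2. Igf2r holds 2 matches and the first of the 2 Igfbp2 promoters 1 match. No match was found in Igf1, Igf1r, Igfbp3, Igfbp4 or Igfbp5, and CACGTG occurs in 7.15% of all promoters. The table held promoters for 9 of the 10 genes.

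**Figure D3:**
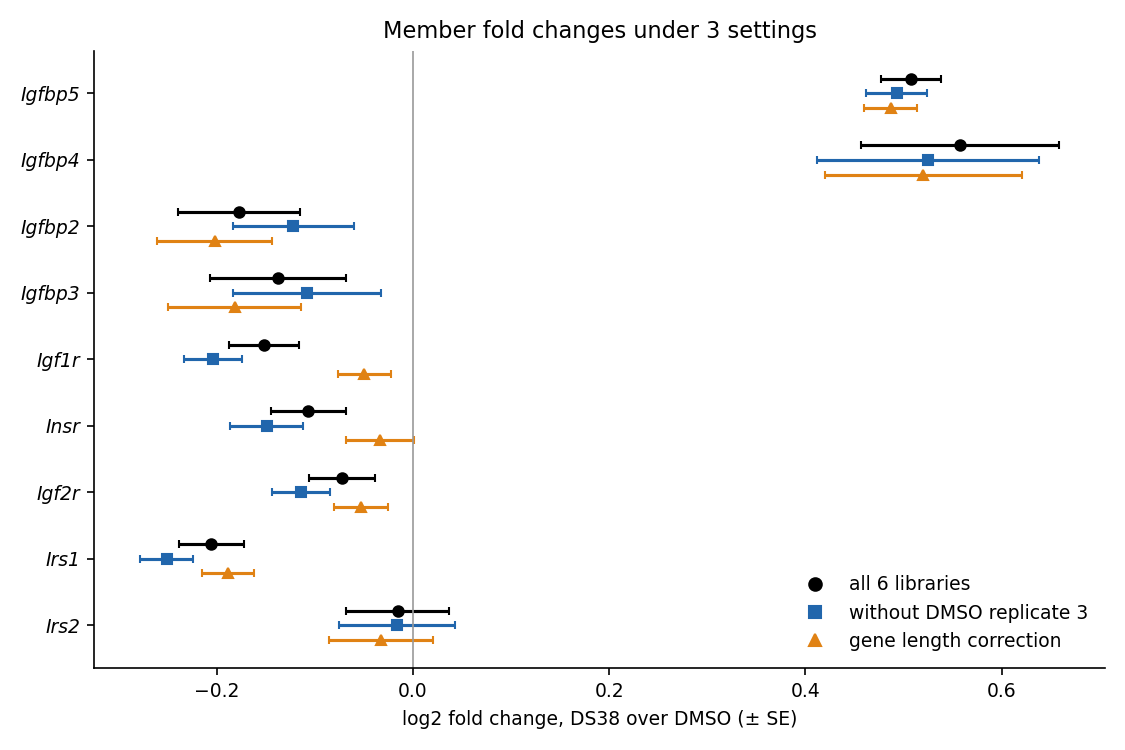
Log2 fold change of DS38 over DMSO (x axis, ± SE) for the 9 measured genes with all libraries, without DMSO replicate 3 and with a correction for gene length. The binding protein genes Igfbp5 and Igfbp4 stay near 0.5 in every setting, and Igf1r moves to -0.050 with the length correction.

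Apart from Igfbp5, which was not tested, 1 of 8 tested members rose and 4 fell. Over all genes tested 24.5% passed, 12.9% higher and 11.7% lower. With library size alone, 68.1% of all calls were higher, against 52.4% in the fit used here, and 2 members fell (Igf1r and Irs1). Leaving out DS38 replicate 1, DS38 replicate 3 or DMSO replicate 1 left 2 members that fell. The groups did not overlap for Igfbp5 and Igfbp4, higher in DS38, nor for Igf1r and Irs1, lower in DS38. Over all tested genes this held for 38.6%, split into 20.7% higher and 17.9% lower in DS38. Without DMSO replicate 3 again 4 members fell, with Igf2r in place of Igfbp2.

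Gene length moved with part of these results. In the deposited table Igf1r is 16791 bases long, Insr 13746, Igf2r 9308 and Irs1 9144. Of 2528 tested genes over 8 kilobases, 28.9% fell and 12.3% rose, whereas of 4838 genes of 2 to 4 kilobases, 7.57% fell and 16.4% rose. Between them, of 5365 genes of 4 to 8 kilobases, 11.6% fell and 16.5% rose. The relation was not steady, since of 4948 genes under 2 kilobases, the class of Igfbp2, 7.07% fell and 5.64% rose. The median log2 fold change was -0.046 in that shortest class and -0.037 over 8 kilobases. With an offset for gene length, an alternative chosen after seeing the data, Igf1r and Insr did not pass, as given above. Under the same correction Irs1 was at -0.19 (edgeR adjusted p = 8.561e-06), Igfbp2 at -0.20 (0.0121) and Igfbp4 at 0.52 (3.843e-04), and Igfbp5 was at 0.49. The part of gene length in the Igf1r and Insr falls was not otherwise tested.

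**Figure D4:**
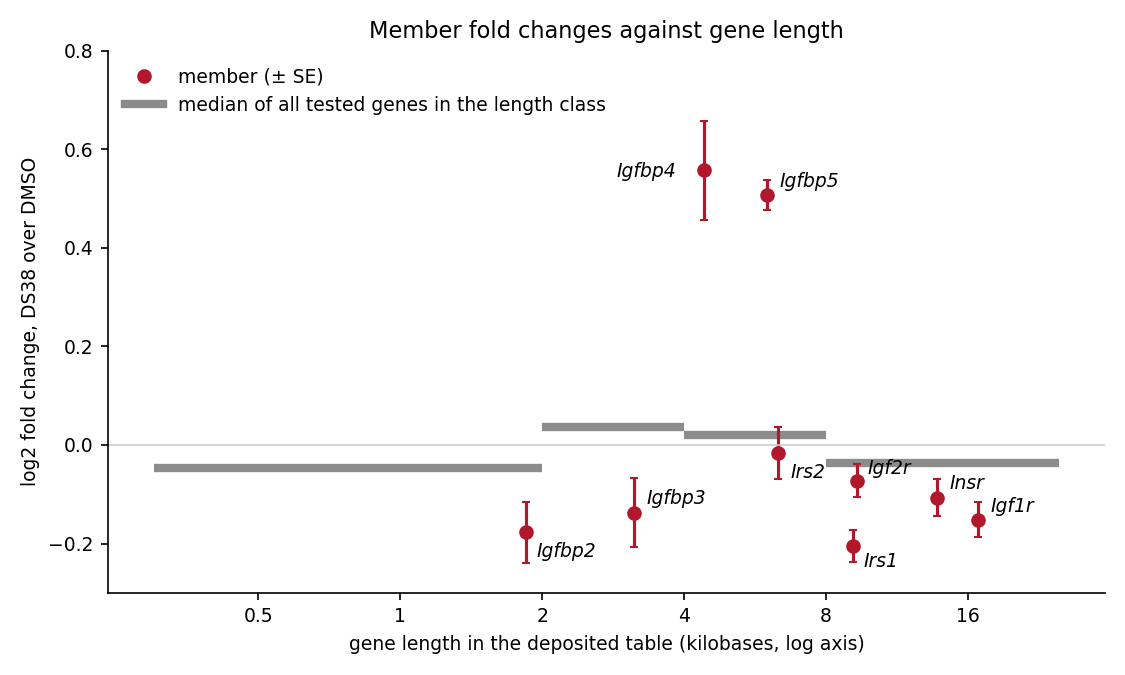
Log2 fold change of DS38 over DMSO (y axis) against gene length (x axis, log scale) for the 9 measured genes (red, ± SE), with grey bars for the median of all tested genes in 4 length classes; the shortest class is drawn from 0.3 kilobases. The 4 longest measured members all lie below the median of their class, which is -0.037.

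Ordered by level per length, the members formed nearly the same ladder in both groups, with the top pair exchanged. In DS38 the order was Igfbp5 (128.7 ± 2.16 TPM), Irs1 (118 ± 0.270), Igf2r (67.4 ± 0.637), Igfbp2 (41.9 ± 3.07), Igf1r (27.0 ± 0.306), Insr (15.2 ± 0.194), Igfbp3 (14.4 ± 1.11), Irs2 (11.1 ± 0.189) and Igfbp4 (4.51 ± 0.114), as mean ± SD of 3 libraries. In DMSO Irs1 led (134 ± 6.81 TPM), followed by Igfbp5 (88.9 ± 2.44), Igf2r (69.6 ± 3.38), Igfbp2 (46.5 ± 3.74), Igf1r (29.4 ± 1.71), Insr (16.01 ± 0.772), Igfbp3 (15.6 ± 0.711), Irs2 (11.0 ± 0.296) and Igfbp4 (3.01 ± 0.114). Igfbp5 lay above Irs1 in each DS38 library and below it in each DMSO library. The neighbours Insr and Igfbp3 changed places between libraries in both groups and did not differ beyond their spread.

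The genes whose pattern was most like that of Igfbp5 were Slc7a2, a cationic amino acid transporter, Gstm1, a glutathione transferase, Slc25a33, a mitochondrial pyrimidine nucleotide carrier, Nceh1, a cholesteryl ester hydrolase, and Mb21d2. Likeness was Pearson's r of log2 CPM over the 6 libraries among 9984 genes of at least 5 CPM, and these 5 had r of 0.998 to 0.999. The value carries little weight, because the libraries fall into 2 groups and 554 of the genes reached at least 0.95. Slc7a2 was at 46.8 CPM in DS38 and 36.8 CPM in DMSO, and Gstm1 at 37.2 CPM in DS38 and 25.8 CPM in DMSO. Among the members, Igfbp4 was the most like Igfbp5 (r = 0.986) and Irs1 the least (r = -0.876).

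Beyond the members, 20 other genes of the IGF system were examined, of which 12 could be tested. Rack1, a scaffold protein that binds IGF1R, rose from this list alone, with 798 ± 17.9 CPM in DS38 and 708 ± 37.4 CPM in DMSO (log2 fold change 0.17 ± 0.033, edgeR adjusted p = 5.553e-04). None fell. Thus 8.33% of the tested genes of this list rose and 0% fell, beside 12.9% and 11.7% of all genes tested. Without DMSO replicate 3, 4 genes of this list rose. In that fit 2437 of all 18349 genes tested were higher and 2474 lower. The median log2 fold change was 0.054, beside 0.0036 over all genes tested. Of the remaining binding protein genes, Igfbp1 had 3 reads and Igfbp6 31 reads over all libraries. Igfbp7 was at 1.62 ± 0.0114 CPM in DS38 and 1.39 ± 0.396 CPM in DMSO. Per length, Igfbp7 was at 5.44 TPM in DS38 and 4.60 TPM in DMSO. The member Igfbp4 was lower on this measure, at 4.51 TPM in DS38 and 3.01 TPM in DMSO. Igfbpl1, from the same list, was at 7.29 TPM in DS38 and 6.99 TPM in DMSO. Of the 3 genes for IGF2 mRNA-binding proteins, Igf2bp3 alone could be tested, at 1.44 ± 0.0967 CPM in DS38 and 1.15 ± 0.237 CPM in DMSO (edgeR adjusted p = 0.262).

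Genes for the proteases that cut IGF-binding proteins, and for their inhibitors, changed in both directions. Of 13 tested, 4 rose (30.8%) and 3 fell (23.1%), beside 12.9% and 11.7% of all genes tested, with a median log2 fold change of 0.031. Among the proteases, Pappa, which cuts IGFBP4 and IGFBP5, fell to 0.686 ± 0.101 CPM in DS38, against 1.11 ± 0.0860 CPM in DMSO (edgeR adjusted p = 0.0241). Adam12, a metalloprotease reported to cut IGFBP3 and IGFBP5, had 10.8 ± 0.286 CPM in DS38 and 13.8 ± 0.610 CPM in DMSO (log2 fold change -0.36 ± 0.062, edgeR adjusted p = 1.738e-04). Adam10, a broad sheddase, fell by 0.14 ± 0.029 on the log2 scale. The secreted serine protease gene Htra1, whose product cuts IGFBP5, was the protease gene that rose, with 22.4 ± 1.19 CPM in DS38 and 19.9 ± 0.239 CPM in DMSO (edgeR adjusted p = 0.0192).

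The inhibitor genes that passed, Stc1, Timp2 and Timp3, were all higher, while Stc2 did not pass and Timp1 could not be tested. Stc1, a stanniocalcin, belongs to a family that blocks PAPPA, and had 14.7 ± 0.535 CPM in DS38 and 13.1 ± 0.482 CPM in DMSO (edgeR adjusted p = 0.0387). The metalloprotease inhibitor genes Timp2 and Timp3 rose by 0.27 ± 0.085 and 0.40 ± 0.12 on the log2 scale. Stc2 was nearly level, at 21.4 ± 1.11 CPM in DS38 and 21.0 ± 0.247 CPM in DMSO (edgeR adjusted p = 0.723). Timp1 had only 36 reads over all libraries. Its level pointed the other way, at 0.304 ± 0.0919 TPM in DS38 and 0.680 ± 0.237 TPM in DMSO. Without DS38 replicate 1 or DMSO replicate 2, 0 genes of this list rose. The Stc1 call was lost in 9 of 16 settings, that of Timp2 also without DMSO replicate 3, and that of Htra1 also with the gene length correction. The Pappa call was lost without DS38 replicate 2 or 3 or DMSO replicate 1 or 3, while those of Adam12 and Adam10 held in all 16 settings.

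Genes of the relay from the receptors to AKT ran from 0.836 CPM (Pik3cd) to 322 CPM (Gsk3b) in DS38. Of the 26 tested, 3 rose (11.5%) and 5 fell (19.2%), beside 12.9% and 11.7% of all genes tested. The median log2 fold change was -0.032. The regulatory subunits of PI3-kinase, which dock on phosphorylated IRS proteins, went different ways. Pik3r1 had 104 ± 3.07 CPM in DS38 and 123 ± 5.39 CPM in DMSO (log2 fold change -0.24 ± 0.034, edgeR adjusted p = 1.895e-05), and Pik3r3 fell by 0.15 ± 0.030. Pik3r2 rose, with 105 ± 3.14 CPM in DS38 and 91.5 ± 5.00 CPM in DMSO (log2 fold change 0.20 ± 0.037, edgeR adjusted p = 2.908e-04). These 3 calls held in all 16 settings.

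Among the other relay genes, Inppl1, which encodes the lipid phosphatase SHIP2, rose by 0.12 ± 0.030 and Foxo3, a transcription factor restrained by AKT, by 0.11 ± 0.030 on the log2 scale. Sos1, the exchange factor that links receptors to RAS, and Gsk3b, a kinase inhibited by AKT, both fell by 0.14. Phlpp2, an AKT phosphatase, completed the genes that fell and was named after its value was seen (-0.13 ± 0.036). Foxo3 did not pass without DS38 replicate 1.

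Genes known to respond to FOXO factors, which insulin and IGF signalling restrain, changed in both directions. Of 16 tested, 3 rose and 3 fell (18.8% each), beside 12.9% and 11.7% of all genes tested, with a median log2 fold change of 0.014. Bcl6 (0.22 ± 0.069), Eif4ebp1 (0.13 ± 0.042) and the PI3-kinase inhibitor gene Pik3ip1 (0.17 ± 0.058) rose on the log2 scale. Fbxo32, a muscle atrophy ubiquitin ligase, had a log2 fold change of -0.15 ± 0.041, Sesn3 of -0.10 ± 0.033 and Rictor of -0.12 ± 0.039, and these 3 fell. Most of these calls were lost when a library was left out. Bcl6 did not pass without DS38 replicate 3 or DMSO replicates 1 or 2, and Eif4ebp1 did not pass without DS38 replicates 1 or 2 or DMSO replicates 1 or 2. Pik3ip1 and Sesn3 passed without DMSO replicate 3 and in no other fit with a library left out. Rictor did not pass without DS38 replicates 2 or 3 or DMSO replicates 1 or 2, and Fbxo32 did not pass without DMSO replicate 1. With the gene length correction Sesn3 was at -0.013 (edgeR adjusted p = 0.732) and Rictor at -0.013 (0.805), and Eif4ebp1 and Pik3ip1 also did not pass (0.0730 and 0.109).

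**Figure D5:**
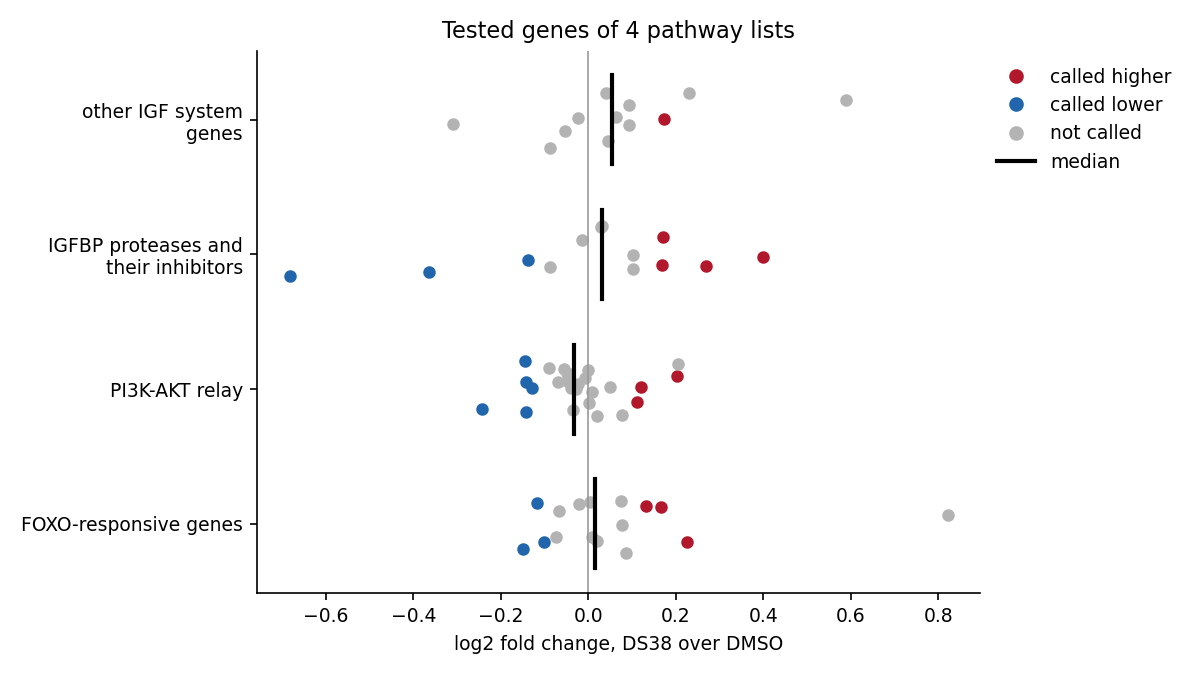
Log2 fold change of DS38 over DMSO (x axis) for every tested gene of 4 pathway lists; each point is 1 gene, coloured by whether it passed edgeR's test higher (red), lower (blue) or not at all (grey), with black bars for list medians and vertical scatter for legibility. The medians lie between -0.032 and 0.054.

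The libraries carried the markers of their labelled origin. All 11 granule progenitor and medulloblastoma markers were tested, with a summed level of 2879.8 to 2899.6 CPM in DS38 and 2963 to 3049 CPM in DMSO; 2 rose (Atoh1 and Barhl1, 18.2%) and 7 fell (63.6%), beside 12.9% and 11.7% of all genes tested. Of those that fell, Neurod1, Ptch1, Zic2 and Ccnd1 had the smallest p. Of 9 fibroblast and mural cell markers, whose cells are rich in binding protein transcripts, 4 were tested. Col1a1 alone rose (25%, beside 12.9% of all genes tested), at 0.822 ± 0.258 CPM in DS38 and 0.373 ± 0.168 CPM in DMSO. It did not pass without DS38 replicate 1 or DMSO replicate 2. Lum and Col3a1 were the most abundant, at log2 fold changes of 0.60 and -0.19, and neither passed. Cspg4, also an oligodendrocyte lineage marker, was the other tested gene and did not pass. Among the untested markers, Col1a2 had 12 reads over all libraries, Dcn 19, Pdgfrb 16 and Acta2 20. The summed level of that list was 3.27 to 3.88 CPM in DS38 and 2.15 to 3.08 CPM in DMSO, and Rgs5 was at 0. The part of such cells in the Igfbp5 and Igfbp4 differences was not tested. Endothelial markers summed to 1.17 to 1.34 CPM in DS38 and 1.01 to 1.51 CPM in DMSO, led by Pecam1 and Tek, with 0 of 3 tested genes called and Cldn5 and Kdr at 0. Microglia and macrophage markers summed to 0.359 to 0.426 CPM in DS38 and 0.2704 to 0.646 CPM in DMSO, led by Tmem119 and Aif1, with C1qa, C1qb and Itgam at 0.

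Astrocyte markers summed to 391 to 402 CPM in DS38 and 448 to 472 CPM in DMSO. The sum was mostly Slc1a2, which fell, and Slc1a3. Gfap rose, a call lost without DS38 replicate 2 (edgeR adjusted p = 0.0854), without DMSO replicate 1 (0.0736) and with thinning (0.0909). Aqp4 and Gja1 had 3 reads each over all libraries. Oligodendrocyte lineage markers summed to 96.8 to 98.8 CPM in DS38 and 96.1 to 96.8 CPM in DMSO, mostly Pdgfra and Olig1, and Mag was at 0. Olig1 rose, but leaving out DS38 replicate 2 ended that call (edgeR adjusted p = 0.0638).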

How the data were processed

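The deposited data are 1 table with raw read counts for each gene, whole numbers in the file, beside a gene length in bases per the file headers. The submitters' processing notes list STAR 2.7.9a, featureCounts, Subread 2.0.3, edgeR and R 4.1.0, and the builds GRCm39 and GRCh38.p13, without role or order; strand setting and multi-mapping rules were not stated in them. Symbols were found for 52083 of the 55416 identifiers.

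Analysis used DESeq2 1.42.0, edgeR 4.0.16 and limma 3.58.1 in R 4.3.3, with figures from matplotlib 3.10.9 in Python 3.11.15. filterByExpr (minimum count 10, minimum total 15) left 17679 genes, and TMM set the scaling. The test of DS38 against DMSO was edgeR's quasi-likelihood test, two-sided, without covariates. Its p-values were adjusted by Benjamini-Hochberg across the 17679 genes and called under 0.05. The SE is the log2 fold change over the root of the test's F. TPM used the deposited lengths. Libraries of 1 group differed by more than sampling noise. Chi-square was 2.91 to 3.56 times its degrees of freedom between DS38 libraries and 8.57 to 9.61 times between DMSO libraries. Against DS38 libraries it was 10.7 to 12.9 times for DMSO replicate 3, the shallowest library. It was 24.3 to 28.9 times for DMSO replicates 1 and 2. The nearness of DMSO replicate 3 on this measure was thus not particular to the members. The r of these pairs was 0.9919 to 0.9932, without such a split.

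The members, gene lists, motifs and naming rule were chosen with earlier results of these data known. The rule named all members and, per list, the 4 genes of smallest p in each direction that passed (the 2 of smallest p where none did), the 2 most abundant markers of other cell types and those at 0, and the 5 genes most like Igfbp5 apart from Gm-number and Rik symbols. Alternatives were RLE scaling, library size alone, DESeq2, limma-voom, robust dispersion, no low-count filter, a filter at 5 CPM in 3 libraries, the replicate block, and each library left out. A gene length correction (offset from a trend on length) and thinning to the smallest total were further alternatives, chosen after seeing the data. Each test was first tested on simulated counts.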

Additional observations from a re-analysis of the deposited data

How the results depend on the processing

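Igfbp4 was the 1 member that rose in every setting but the stricter filter, where the count was 0 because Igfbp4 was no longer tested. Members that fell numbered 4, and 3 without a filter on low counts, where Insr did not pass (edgeR adjusted p = 0.0765), 2 with library size alone, the replicate block, the gene length correction or thinning, and 2 to 4 with a library left out. The cause was not tested, apart from the settings' own construction. Deviations from the group mean showed no shared signal by replicate number. Same-numbered libraries correlated at -0.0266 to 0.0349 and different-numbered ones at -0.0436 to 0.0563. A shared culture or handling is not stated in the labels, and so few pairs cannot decide it. With the replicate block, 2108 genes were higher and 1902 lower, against 2272 and 2068, and Igfbp2 (edgeR adjusted p = 0.0543) and Insr (0.0708) were the members that no longer passed. In the other IGF system list, 3 genes rose with library size alone, 2 with limma-voom, robust dispersion, no filter or the stricter filter, and 1 to 4 with a library left out, against 1. Of all genes, 2229 rose with limma-voom, 2313 with robust dispersion, 2413 of 32369 without a filter and 1931 of 10604 with the stricter filter. Without a filter 2031 fell. In the protease list, 2 rose with the length correction and 0 to 3 with a library left out, against 4. In the FOXO-responsive list, the library-size scaling gave 6 that rose and the length correction 1, and 0 to 3 rose with a library left out, against 3; 1 fell with library size alone and 0 to 3 with a library left out, against 3. Signs turned for genes that did not pass: Irs2 (0.019) and Pdgfra (0.0049) under library-size scaling, and Tek with thinning (0.056). With a library left out, Irs2 ranged over -0.039 to 0.0052, Pdgfra over -0.045 to 3.484e-04, Pecam1 over -0.072 to 0.78 and Col3a1 over -0.45 to 0.11. Igfbp5 stayed between 0.49 and 0.54. At the depth of these libraries Igf1 lay at or under 3 counts, so a difference in it was not detectable.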
